A study of Mus musculus with 16 samples.

Results

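The genes described here are 10 members of the fibroblast growth factor (FGF) pathway, chosen by gene symbol: the ligands Fgf3, Fgf8, Fgf10, Fgf15 and Fgf17, the feedback inhibitors Spry1, Spry2, Spry4 and Dusp6, and the ETS transcription factor Etv4. All 10 of these symbols were present among the 26411 genes counted, and all 10 were among the 15679 genes with enough reads to be tested. RNA was measured in 16 whole mouse embryos at embryonic day 9.5 (E9.5), from hybrid crosses of the FVB and BALB/c strains, with 4 embryos in each of 4 genotypes. Wild-type embryos carried normal copies of both histone acetyltransferase genes (Kat6a+/+Kat6b+/+). Kat6a-/- embryos were homozygous for an allele without exons 5 to 9 of Kat6a and carried no transgene (Kat6a-/-Kat6b+/+). Tg(Kat6b) embryos had an intact Kat6a gene and additional genomic copies of Kat6b with its own flanking sequence, on a bacterial artificial chromosome (Kat6a+/+Tg(Kat6b)). Kat6a-/-Tg(Kat6b) embryos combined both changes. The transgene came from a single germline founder and was driven by the regulatory sequence it carried. The comparisons ask whether the levels of these genes depended on Kat6a, and whether more Kat6b altered them with or without Kat6a.

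FGFs are secreted proteins that bind receptor tyrosine kinases on neighbouring cells and activate the RAS and mitogen-activated protein kinase cascade. Cells that receive the signal transcribe ETS factors such as Etv4, and also Sprouty proteins and the phosphatase Dusp6, which restrain the same cascade, so that these transcripts are widely used as a readout of FGF activity. At this stage of mouse development the ligands are made in small signalling centres: Fgf8 in the tail bud, the isthmus between midbrain and hindbrain, the ridge of the limb bud and the pharynx, Fgf17 at the isthmus, Fgf10 in limb mesenchyme and the anterior heart field, Fgf3 in the pharynx, hindbrain and tail bud, and Fgf15 in the neural tube and pharynx. In RNA from a whole embryo, fewer cells making a transcript and less transcript per cell cannot be told apart.

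The files gave between 14407277 and 45665680 reads on genes per embryo. Values below are CPM (counts scaled to the TMM-adjusted size of the library), or RPKM (also scaled to the length of the gene) where genes of different length are compared. Kat6b was at 46.2 ± 2.45 CPM in wild-type, 49.1 ± 2.03 in Kat6a-/-, 192 ± 29.7 in Tg(Kat6b) and 197 ± 4.92 in embryos with both changes (SD, 4 embryos each), and its ranges with and without the transgene did not overlap. Kat6a itself was at 199 ± 16.5, 202 ± 15.2, 179 ± 27.3 and 192 ± 7.87 CPM in the same order, but reads summed over the gene do not resolve the missing exons and so do not check that genotype. Tg(Kat6b) replicate 1 stood apart in long transcripts. Over the 989 tested genes longer than 8000 bases its median log2 CPM, relative to the mean of the other embryos, was -0.34, compared with -0.074 to 0.16 in the other embryos. Kat6a, at 138 CPM in it and 189 to 196 in the rest of its genotype, is among these genes and none of the 10 FGF genes is. Differences that passed a threshold in comparisons with Tg(Kat6b) embryos are also given without it. All 9 markers of embryonic tissues were present, at a summed 539 to 629 CPM. Of 7 yolk sac endoderm markers, 5 passed the filter and the summed level was 13.8 to 54.5 CPM in wild-type, 8.52 to 16.3 in Kat6a-/-, 4.37 to 48.8 in Tg(Kat6b) and 37.8 to 51.0 in Kat6a-/-Tg(Kat6b) embryos. The highest value in any embryo was 44.8 CPM for Afp, 6.76 for Rbp4, 3.09 for Ttr and 2.71 for Cubn. The other 3 stayed under 1 CPM in all embryos. Trophoblast and decidua markers summed to at most 2.35 and 1.75 CPM in any embryo. The 5 markers of primitive red blood cells summed to 2505 to 5138 CPM. The Kat6a-/-Tg(Kat6b) embryos came from litters 483 and 498, which held no embryo of another genotype, so that litter and genotype cannot be told apart in every comparison with them. The Kat6a-/- embryos shared litters 801 and 803 with 2 wild-type embryos, and the Tg(Kat6b) embryos shared litters 2597 and 2598 with the other two.

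The positions of the genes are from the GENCODE annotation of GRCm39, the assembly of the alignment. Fgf3 lies on chromosome 7 from 144391599 to 144398173 (plus strand) and Fgf15 lies downstream on the same strand, on chromosome 7 from 144450268 to 144454690 (plus strand). Fgf17 and Spry2 share a chromosome, with Fgf17 on chromosome 14 from 70873643 to 70879763 (minus strand) and Spry2 on chromosome 14 from 106128766 to 106136446 (minus strand). Fgf8 lies on chromosome 19 from 45725237 to 45731354 (minus strand), Fgf10 on chromosome 13 from 118806327 to 118928672 (plus strand), Spry1 on chromosome 3 from 37693897 to 37698755 (plus strand), Dusp6 on chromosome 10 from 99086564 to 99103361 (plus strand) and Etv4 on chromosome 11 from 101660568 to 101676197 (minus strand). All are protein coding. The library kit does not mark strand, so reads of a gene and of one on the opposite strand cannot be told apart where their exons overlap. Such overlaps covered 25.7% of the exon bases of Fgf15, 23.0% of Dusp6, 19.0% of Spry1, 13.7% of Fgf8, 11.0% of Spry2, 9.84% of Etv4, 5.28% of Fgf17 and 2.49% of Fgf10, and no exon base of Fgf3 or Spry4.

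Promoter sequences, from 250 bases before to 50 bases after the start site, were taken from RefSeq on GRCm38.p6, where 5 of the 10 genes matched (Spry1, Spry2, Dusp6, Fgf3 and Fgf10). A pair of them is shown, for Spry2, which was the only member past the significance threshold in any comparison of genotypes, and for Dusp6, the member with the highest level. Both are feedback genes transcribed downstream of FGF signalling, to which ETS factors such as Etv4 contribute by binding sites with a GGAA core. Capitals mark the letters CGGAA or, on the other strand, TTCCG. The Spry2 promoter is at chr14:105896770-105897069 on the minus strand, and the Dusp6 promoter at chr10:99262981-99263280 on the plus strand, both printed 5′ to 3′.
Spry2: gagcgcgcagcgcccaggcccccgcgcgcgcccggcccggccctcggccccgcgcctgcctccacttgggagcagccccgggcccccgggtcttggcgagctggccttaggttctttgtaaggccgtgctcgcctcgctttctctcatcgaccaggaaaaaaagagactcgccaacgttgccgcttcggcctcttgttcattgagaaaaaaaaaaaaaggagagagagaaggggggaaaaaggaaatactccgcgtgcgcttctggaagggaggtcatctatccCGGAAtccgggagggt
Dusp6: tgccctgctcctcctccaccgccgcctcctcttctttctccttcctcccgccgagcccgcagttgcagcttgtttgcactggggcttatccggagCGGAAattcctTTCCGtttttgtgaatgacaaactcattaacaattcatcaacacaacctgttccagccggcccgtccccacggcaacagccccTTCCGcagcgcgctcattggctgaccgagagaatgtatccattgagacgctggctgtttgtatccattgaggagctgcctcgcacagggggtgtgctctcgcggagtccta
The motif occurred once near the 3′ end of the Spry2 window and 3 times in that of Dusp6, and in none of the windows of Spry1, Fgf3 and Fgf10. It was present in 29.9% of the 32851 promoters of the same length, and a match is a description of these letters only. The windows of Spry1 and Spry2 held 29 and 28 CpG dinucleotides, compared with 19 for Dusp6, 14 for Fgf3 and 10 for Fgf10.

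In wild-type embryos, by RPKM with the gene lengths listed beside the counts, the highest members were 3 of the 4 feedback genes, and the ligands lay lower. By RPKM, Dusp6, which dephosphorylates ERK, was highest at 43.9 ± 1.98 RPKM (SD, n = 4). Spry2 followed at 17.1 ± 1.38 RPKM and Spry1 at 14.7 ± 0.612 RPKM, and the values of this pair overlapped. Next in order were Etv4, at 11.0 ± 0.695 RPKM, and Fgf15, at 11.0 ± 1.78 RPKM, which overlapped each other. With these lengths Fgf15 was the highest ligand, above Fgf8 at 7.79 ± 1.3 RPKM. Fgf17 and Fgf10 overlapped at 4.37 ± 0.715 and 3.5 ± 0.365 RPKM, and Spry4 and Fgf3 overlapped at 2.73 ± 0.320 and 2.23 ± 0.648 RPKM. Every other pair of neighbours in this order was separate in its 4 values. The order depends on the lengths used. The listed length and the annotated exon bases were 1809 and 3058 for Fgf15, 1636 and 1350 for Fgf8, and 2087 and 5148 for Spry2. The order with annotated exon bases was not computed, so the places of these genes are not settled. Among the receptors, which were not members, Fgfr1 was at 29.2 ± 0.646 RPKM, Fgfr2 at 22 ± 1.74, Fgfr3 at 14.9 ± 1.35 and Fgfr4 at 1.26 ± 0.352 RPKM. Other inhibitors and ETS factors of the pathway were in the same range. Spred1, Spred2, Dusp4 and Il17rd were at 21.9 ± 0.610, 22.8 ± 1.29, 13.8 ± 2.11 and 13.2 ± 0.594 RPKM, Etv5 was at 12.6 ± 0.590 RPKM, and Etv1 was lower at 1.92 ± 0.277 RPKM.

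**Figure D1:**
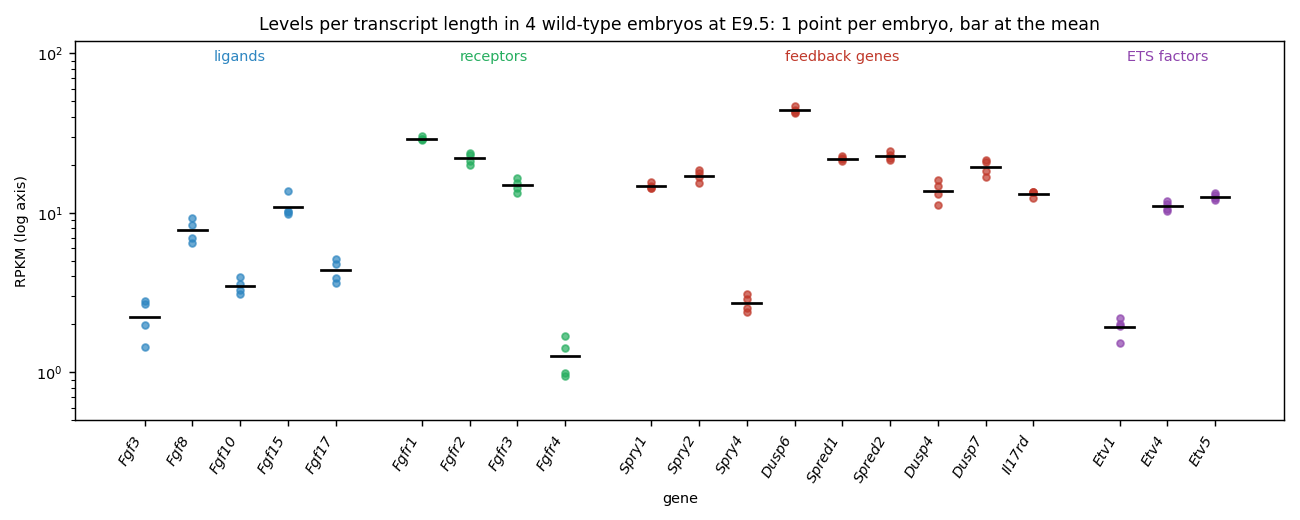
Levels in RPKM (log axis) of the ligands, receptors, feedback genes and ETS factors in the 4 wild-type embryos, with 1 point per embryo and a bar at the mean. Dusp6 is the highest at 43.9 RPKM, and the 5 member ligands lie between 2.23 (Fgf3) and 11.0 RPKM (Fgf15).

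The 10 genes differed little between genotypes. The ratio of the highest to the lowest genotype mean was between 1.08 (Fgf3) and 1.28 (Fgf8), and over the 5 comparisons of genotypes 1 of 50 differences passed an FDR of 0.05. The 95% intervals of these 50 differences lay between 0.662-fold and 1.45-fold, so that none reached a 2-fold difference in either direction.

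Among the ligands, Fgf8 was at 10.6, 15.2, 11.4 and 13.7 CPM in wild-type embryos, 11.0, 10.5, 11.6 and 12.3 CPM in Kat6a-/- embryos, 14.3, 14.4, 14.3 and 11.5 CPM in Tg(Kat6b) embryos and 13.9, 14.7, 14.9 and 14.6 CPM in Kat6a-/-Tg(Kat6b), in replicate order. The 4 Kat6a-/-Tg(Kat6b) embryos were all above the 4 Kat6a-/- embryos, and both wild-type and Tg(Kat6b) embryos spanned the gap between them. Fgf17, a close relative of Fgf8 that acts at the isthmus, was at 8.31, 8.95, 6.79 and 6.32 CPM in wild-type embryos, 9.40, 9.57, 8.92 and 7.69 CPM in Kat6a-/- embryos, 8.55, 7.50, 8.58 and 7.55 CPM in Tg(Kat6b) embryos and 10.3, 9.91, 7.71 and 10.9 CPM in Kat6a-/-Tg(Kat6b). Its values overlapped in every pair of genotypes, and 10.9 CPM in a Kat6a-/-Tg(Kat6b) embryo was the highest. Fgf10, which drives outgrowth of the limb and lung, was at 16.4, 15, 12.9 and 13.7 CPM in wild-type embryos, 13.1, 15, 14.7 and 11.8 CPM in Kat6a-/- embryos, 12.4, 13.6, 9.52 and 11.9 CPM in Tg(Kat6b) embryos and 15.1, 15.8, 14.4 and 14.9 CPM in Kat6a-/-Tg(Kat6b). The Tg(Kat6b) embryos were lowest on average, and all 4 lay below the 4 Kat6a-/-Tg(Kat6b) embryos.
Fgf15, the mouse counterpart of human FGF19, was at 18.3, 24.6, 18.5 and 17.8 CPM in wild-type embryos, 17.9, 20.4, 19.6 and 19.4 CPM in Kat6a-/- embryos, 19.9, 19.1, 17.5 and 22.7 CPM in Tg(Kat6b) embryos and 17.0, 16.1, 17.9 and 16.9 CPM in Kat6a-/-Tg(Kat6b). The Kat6a-/-Tg(Kat6b) values were low but reached above the lowest embryo of each other genotype. Fgf3, which is required for the inner ear, had the fewest reads (25 to 155 per embryo), at 3.22, 3.37, 2.37 and 1.72 CPM in wild-type embryos, 3.15, 2.79, 2.19 and 2.17 CPM in Kat6a-/- embryos, 2.89, 2.52, 2.76 and 2.45 CPM in Tg(Kat6b) embryos and 2.26, 3.33, 2.16 and 3.40 CPM in Kat6a-/-Tg(Kat6b). Its values overlapped in every pair of genotypes.

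Among the feedback genes, Spry1 was at 35.7, 38.8, 37.0 and 35.6 CPM in wild-type embryos, 34.9, 36.9, 30.8 and 30.2 CPM in Kat6a-/- embryos, 39.4, 40.6, 34.4 and 37.6 CPM in Tg(Kat6b) embryos and 36.0, 39.3, 30.6 and 37.3 CPM in Kat6a-/-Tg(Kat6b). Every pair of genotypes overlapped, and the lowest embryo was Kat6a-/-. Spry2 was at 31.9, 37.2, 35.3 and 38.5 CPM in wild-type embryos, 33.7, 34.3, 28.9 and 31.8 CPM in Kat6a-/- embryos, 38.3, 37.2, 37.8 and 39.6 CPM in Tg(Kat6b) embryos and 31.4, 32.8, 33.4 and 34.4 CPM in Kat6a-/-Tg(Kat6b). The lowest Tg(Kat6b) embryo, at 37.2 CPM, was above the highest Kat6a-/- embryo, at 34.3, and above the highest Kat6a-/-Tg(Kat6b) embryo, at 34.4 CPM. Spry4, which like the other Sprouty proteins inhibits signalling below the receptor, lies on chromosome 18 from 38719300 to 38736025 (minus strand) and was at 11.2, 13.5, 14.6 and 11.9 CPM in wild-type embryos, 9.52, 12.2, 11.5 and 9.44 CPM in Kat6a-/- embryos, 13.9, 13.1, 14.1 and 12.9 CPM in Tg(Kat6b) embryos and 10.7, 12.2, 10.6 and 11.4 CPM in Kat6a-/-Tg(Kat6b). The Tg(Kat6b) embryos lay above both groups without Kat6a, and wild-type embryos overlapped all groups. For Spry2 and Spry4, Tg(Kat6b) embryos were not tested against Kat6a-/- embryos. The share of all genes separated between those genotypes was not computed.
Dusp6 was at 123, 119, 130.3 and 118 CPM in wild-type embryos, 112, 125, 123 and 107 CPM in Kat6a-/- embryos, 123, 124, 118 and 129.6 CPM in Tg(Kat6b) embryos and 121, 105, 115 and 109.6 CPM in Kat6a-/-Tg(Kat6b), and every pair of genotypes overlapped. Etv4, a transcriptional effector of the pathway, was at 26.5, 27.7, 24.1 and 24.8 CPM in wild-type embryos, 20.6, 24.6, 25.8 and 19.0 CPM in Kat6a-/- embryos, 24.1, 24.5, 22.4 and 22.9 CPM in Tg(Kat6b) embryos and 25.2, 28.5, 23.5 and 25.1 CPM in Kat6a-/-Tg(Kat6b). The lowest embryo, at 19.0 CPM, and the next lowest were both Kat6a-/-, but the other two Kat6a-/- embryos lay among the wild-type values.

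**Figure D2:**
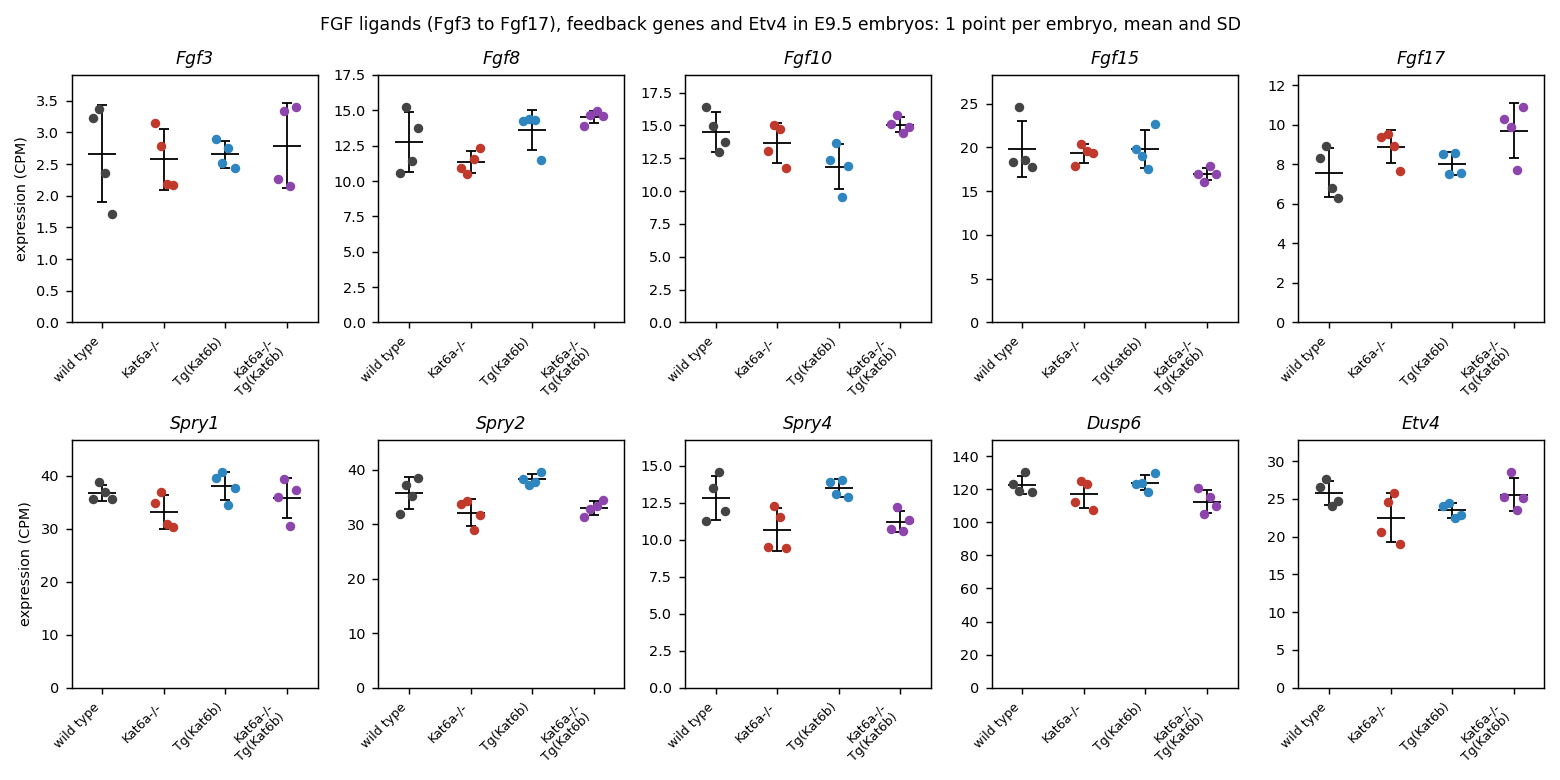
Expression in CPM (vertical axes from 0) of the 10 genes in each genotype, with 1 point per embryo (replicates 1 to 4 from left to right) and the mean and SD of 4 embryos in black. Within each gene the genotypes lie close together, and Fgf8 is higher in all 4 Kat6a-/-Tg(Kat6b) embryos (13.9 to 14.9 CPM) than in the 4 Kat6a-/- embryos (10.5 to 12.3 CPM).

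To see whether the levels depended on Kat6a, Kat6a-/- embryos were compared with wild-type embryos. None of the 10 genes was differentially expressed at an edgeR FDR under 0.05 (the Benjamini-Hochberg adjusted p over all 15679 genes), while 1.88% of all tested genes were. DESeq2 and limma-voom also called none of them. The wild-type embryos are shared by all comparisons with wild type, so those comparisons are not independent. At an unadjusted p under 0.05, 4 of the 10 genes were lower (Spry1, Spry2, Spry4 and Etv4) and none higher, where 15.2% of all genes passed this limit and 7.93% passed and were lower. The log2 fold changes, with standard errors (SE) from the fit, were -0.16 for Spry1 (SE 0.0565, FDR 0.172), -0.15 for Spry2 (SE 0.0581, FDR 0.214), -0.26 for Spry4 (SE 0.0997, FDR 0.198) and -0.20 for Etv4 (SE 0.0833, FDR 0.239). These 4 genes are among the readouts of the signal. Of the 13 other feedback genes and targets tested, 6 were below 0 and 7 above, with a median of 0.0051. The estimate was below 0 for 9 of the 10 genes, compared with 48.8% of all genes, and the median of the 10 was -0.12, compared with 0.0033 for all genes.
Dusp6, the member with the most reads, was at a log2 fold change of -0.068, with a 95% interval of 0.890 to 1.02 fold. For the ligands the estimates were -0.084 (Fgf3), -0.16 (Fgf8), -0.10 (Fgf10), -0.029 (Fgf15) and 0.22 (Fgf17), with FDRs of 0.339 or more. The interval was 0.776 to 1.03 fold for Fgf8 and 0.997 to 1.36 fold for Fgf17, the gene that was higher. Signs for Fgf3, Fgf8 and Fgf15 were not stable. Without wild-type replicate 1 or Kat6a-/- replicate 4 Fgf3 was at 0.043 and 0.0090, without wild-type replicate 2 Fgf15 was at 0.10, and with at least 10 counts required in every embryo Fgf8 was at 0.0015. Fgf8 itself had 196 to 666 counts per embryo. That requirement changed the other genes of the fit, from which the surrogate variables were estimated again, and not its own counts.
Litters 801 and 803 each held 1 wild-type and 2 Kat6a-/- embryos, so that this comparison can also be made within litters. In litter 801 the wild-type embryo was male and both Kat6a-/- embryos were female, so sex and genotype cannot be told apart there. All embryos of litter 803 were male. The fit with litter as a block had no sex term and no surrogate variables. With litter as a block 9 of the 10 estimates were below 0. This is a refit of embryos already in the main fit, and the share of all genes below 0 was not computed for it. The log2 fold changes were -0.17 for Spry1, -0.10 for Spry2, -0.20 for Spry4 and -0.27 for Etv4, with edgeR FDRs of 0.593 to 0.847. Fgf17 was then at 0.040 and Fgf3 at -0.37, while Fgf8, Fgf10 and Fgf15 were at -0.17, -0.20 and -0.14, and Dusp6 at -0.053. For Spry4 in litter 801 the wild-type embryo was at 11.2 CPM and its Kat6a-/- littermates at 9.52 and 12.2 CPM. In litter 803 the wild-type embryo was at 13.5 CPM and its littermates at 11.5 and 9.44 CPM. Thus 3 of the 4 Kat6a-/- embryos were below their wild-type littermate for Spry4. The same number was below it for Spry1, Fgf8 and Fgf15, all 4 for Etv4, Fgf3 and Fgf10, and 2 of 4 for Spry2, Dusp6 and Fgf17. Shares of all genes were not computed for these tallies. Both Kat6a-/- embryos of litter 801 were above their wild-type littermate for Spry2.

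Addition of the Kat6b transgene to embryos with Kat6a was tested in Tg(Kat6b) vs. wild-type embryos. None of the 10 genes passed an edgeR FDR of 0.05, nor by DESeq2 or limma-voom, and 0.14% of all genes passed with edgeR. At an unadjusted p under 0.05, 1 of the 10 genes was lower, where 11.5% of all genes passed and 7.42% passed and were lower. This was Fgf10 (log2 fold change -0.28 with SE 0.103 and an FDR of 0.263). Without Tg(Kat6b) replicate 1 its log2 fold change was -0.28 with an edgeR FDR of 0.566, and with litter as a block it was -0.16 with an edgeR FDR of 0.999. In litter 2597 the wild-type embryo was at 12.9 CPM of Fgf10, between its 3 transgenic littermates, while in litter 2598 it was above its transgenic littermate. The estimate was below 0 for 2 of the 10 genes, compared with 49.2% of all genes. With litter as a block it was below 0 for 4 of the 10, where the share of all genes was not computed. In the main fit Fgf3 was at 0.081 and Fgf15 at 0.024, although their mean CPM was slightly below wild type. These means were 2.65 and 2.67 CPM for Fgf3, and 19.79 and 19.82 CPM for Fgf15. All 3 Sprouty genes were within 95% intervals of 0.913 to 1.21 fold, and Dusp6 was within 0.933 to 1.07 fold.

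Kat6a-/-Tg(Kat6b) embryos, with the transgene but without Kat6a, were compared with each of the other genotypes. Compared with wild-type embryos, none of the 10 genes passed an edgeR FDR of 0.05, nor by DESeq2 or limma-voom, and 0.67% of all genes passed with edgeR. At an unadjusted p under 0.05, 2 of the 10 genes passed, against 12.7% of all genes. Fgf15 was the lower (log2 fold change -0.26 with SE 0.0944 and an FDR of 0.233), and Fgf17 the higher (log2 fold change 0.28 with SE 0.112 and an FDR of 0.293). Without wild-type replicate 2, the embryo with the most Fgf15, the estimate for Fgf15 was -0.075. The values of both genes overlapped between these genotypes. The estimate was below 0 for 7 of the 10 genes and for 51.2% of all genes. Among the 7 was Fgf3 at -0.16, although its mean CPM was higher than in wild-type embryos (2.79 and 2.67).
Compared with Kat6a-/- embryos, none of the 10 genes passed, although 7.14% of all genes did with edgeR. At an unadjusted p under 0.05, 2 of the 10 genes passed, against 23.2% of all genes. Fgf8 was higher with the transgene (log2 fold change 0.32 with SE 0.101 and an FDR of 0.0546), with a 95% interval of 1.08 to 1.45 fold, and its groups did not overlap, as for 7.29% of all genes in this direction. This gene was close to the threshold. DESeq2 gave an FDR of 0.0376, limma-voom 0.0470 and edgeR without Tg(Kat6b) replicate 1 0.0340, while requiring at least 10 counts in every embryo gave a log2 fold change of 0.10 with an FDR of 0.834. With 196 to 666 counts per embryo, Fgf8 met that requirement. The other genes of the fit and the surrogate variables changed, and its own counts did not. The summed yolk sac markers did not overlap between these genotypes either (8.52 to 16.3 and 37.8 to 51.0 CPM), with none of the 5 tested past the threshold, and their part in the Fgf8 difference was not tested. Afp was the highest of these markers, at up to 44.8 CPM in an embryo, and the next, Rbp4, reached 6.76 CPM. Fgf15 was lower (log2 fold change -0.23 with SE 0.0926 and an FDR of 0.129). The 3 Sprouty genes and Dusp6, the 4 feedback genes, were within 95% intervals of 0.898 to 1.21 fold in this comparison, whereas Fgf8, a ligand, had an interval above 1. The estimate was below 0 for 3 of the 10 genes and for 51.4% of all genes. Among the 3 was Fgf3 at -0.073, although its mean CPM was higher than in Kat6a-/- embryos (2.79 and 2.57).

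Loss of Kat6a in the presence of the transgene was tested in Kat6a-/-Tg(Kat6b) vs. Tg(Kat6b) embryos. Spry2 was the 1 of 10 genes that passed an edgeR FDR of 0.05, and it was lower (log2 fold change -0.23 with SE 0.0629 and an FDR of 0.0470), with a 95% interval of 0.779 to 0.934 fold and no overlap of the groups. Of all genes, 3.41% passed, and 1.14% passed and were lower. The call of Spry2 was close to the threshold. It was kept by DESeq2 (FDR 0.0250) and limma-voom (FDR 0.0350), but without Tg(Kat6b) replicate 1 the log2 fold change was -0.22 with an edgeR FDR of 0.176. It was also lost when any 1 of 11 other embryos was left out, with FDRs of up to 0.112. At an unadjusted p under 0.05, 5 of the 10 genes passed, against 18.9% of all genes. These were Spry1 (-0.16, FDR 0.151), Spry2, Spry4 (-0.28, FDR 0.162) and Fgf15 (-0.29, FDR 0.111), all lower, and Fgf10 (0.28, FDR 0.160), which was higher. Without Tg(Kat6b) replicate 1 the estimates were -0.14 for Spry1, -0.24 for Spry4, -0.33 for Fgf15 and 0.28 for Fgf10, beside the -0.22 for Spry2 given above. The groups did not overlap for Spry2 and Spry4 (lower, 4.37% of all genes) and for Fgf10 (higher, 6.09% of all genes). In all, 6 of the 10 estimates were below 0, compared with 52.5% of all genes. These include Fgf3 at -0.24, although its mean CPM was higher in Kat6a-/-Tg(Kat6b) (2.79) than in Tg(Kat6b) embryos (2.65). The comparison of Kat6a-/- with wild-type embryos gave -0.16, -0.15 and -0.26 for the 3 Sprouty genes. It shares no embryo with this one, but both come from the same fit, with shared surrogate variables and spread, and are not independent.

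Whether the transgene acted differently with and without Kat6a was tested by the interaction, the difference between the effects of the transgene in Kat6a-/- and in Kat6a+/+ embryos. None of the 10 genes passed an edgeR FDR of 0.05, nor by DESeq2 or limma-voom, while 0.153% of all genes passed with edgeR. At an unadjusted p under 0.05, 2 of the 10 genes passed, against 14.6% of all genes. These were Fgf10 (log2 fold change 0.38 with SE 0.148 and an FDR of 0.247) and Etv4 (log2 fold change 0.28 with SE 0.123 and an FDR of 0.311), in both of which the effect of the transgene was more positive in embryos without Kat6a. Without Tg(Kat6b) replicate 1 these were 0.39 and 0.27. Of the 10 estimates 7 were below 0, compared with 50.2% of all genes. For the 3 Sprouty genes and Dusp6 no interaction was detectable, with intervals from 0.803 to 1.22 fold.

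**Figure D3:**
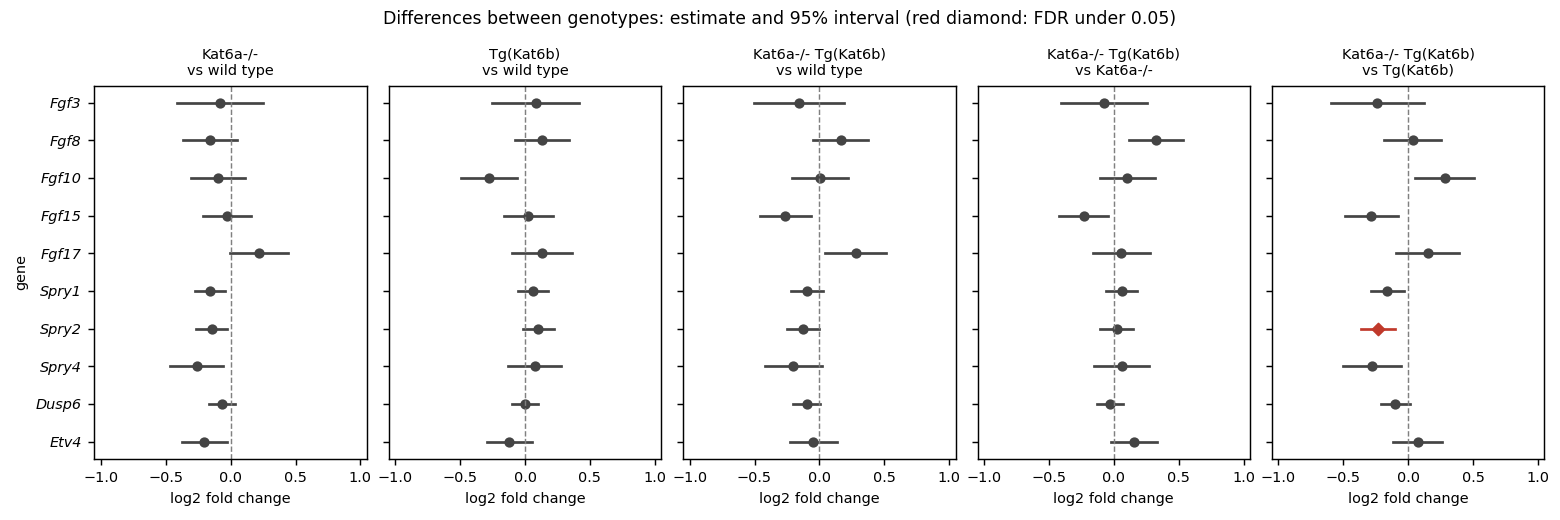
Log2 fold changes (horizontal axes) of the 10 genes in the 5 comparisons of genotypes, as estimates with 95% intervals, where a red diamond marks an edgeR FDR under 0.05. The diamond is Spry2 in Kat6a-/-Tg(Kat6b) vs. Tg(Kat6b) embryos, at -0.23, and no interval reaches a log2 fold change of 1 or -1.

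The other genes of the pathway were examined as 5 lists of 58 genes in all (13 ligands, 4 intracellular FGFs, 9 receptors and cofactors, 18 signal transducers and 14 further feedback genes and targets), of which 49 had enough reads. In Kat6a-/- vs. wild-type embryos 1 of the 49 was differentially expressed (2.04%), which is near the 1.88% of all tested genes. Fgfr3, a receptor of neural tissue, was at 61.0, 65.5, 70.6 and 75.2 CPM in wild-type and 54.5, 52.6, 57.4 and 58.4 CPM in Kat6a-/- embryos, so that every Kat6a-/- embryo was lower (log2 fold change -0.27 with SE 0.0528 and an FDR of 0.00848). The share of all genes separated in this way was not computed. With litter as a block Fgfr3 was at -0.18 with an FDR of 0.535. Its mean was 56.0 ± 6.93 CPM in Kat6a-/-Tg(Kat6b) and 66.4 ± 4.88 CPM in Tg(Kat6b) embryos, and it passed in no other comparison. The other receptors did not pass, with log2 fold changes of -0.045 for Fgfr1, -0.12 for Fgfr2 and -0.22 for Fgfr4. Further feedback genes and ETS factors that share the readout role of the members did not pass either. Their log2 fold changes were 0.0051 (Spred1), -0.046 (Spred2), -0.078 (Dusp4), -0.047 (Il17rd), -0.0041 (Etv1) and -0.028 (Etv5), with FDRs of 0.599 or more. None of the 49 passed in Tg(Kat6b) vs. wild-type embryos, or in the interaction, with edgeR, where 4 and 8 of the 49 had an unadjusted p under 0.05, beside 11.5% and 14.6% of all genes.
In Kat6a-/-Tg(Kat6b) embryos Fgfbp3, which encodes an FGF-binding protein, was lower than in wild-type embryos (log2 fold change -0.46 with SE 0.0942 and an FDR of 0.0254) and lower than in Tg(Kat6b) embryos (log2 fold change -0.46 with SE 0.0976 and an FDR of 0.0148). It was at 23.0, 21.1, 18.9 and 19.99 CPM, compared with 30.6, 28, 24.8 and 27.9 CPM in wild-type and 28.5, 25.4, 29.1 and 27.5 CPM in Tg(Kat6b) embryos, without overlap. Fgfbp3 was the 1 of 49 (2.04%) in each comparison, beside 0.67% of all genes against wild type and 3.41% against Tg(Kat6b). Of all genes, 4.37% were separated and lower against Tg(Kat6b), and this share was not computed against wild type. Without Tg(Kat6b) replicate 1 the comparison with Tg(Kat6b) gave -0.48 with an FDR of 0.0606. In Kat6a-/-Tg(Kat6b) vs. Kat6a-/- embryos 2 of the 49 were higher, the phosphatase gene Dusp7 (0.35, FDR 0.0111) and the exchange factor gene Sos2 (0.18, FDR 0.0295), and 2 were lower, Map2k2 (-0.15, FDR 0.0212) and the immediate early gene Egr1 (-0.41, FDR 0.0314). These 4 of 49 stand beside 7.14% of all genes in that comparison.

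Genes that mark the tissues in which FGFs are made were examined beside the FGF genes. Of 34 such genes, all tested, 5 were lower and none higher in Kat6a-/- vs. wild-type embryos, compared with 0 of the 10 members and 0.938% of all genes in this direction. In the limb ridge this was Sp9, a zinc finger factor of the ridge that makes Fgf8, at 2.92, 2.76, 4.06 and 4.05 CPM in wild-type and 2.27, 1.17, 1.36 and 1.78 CPM in Kat6a-/- embryos (log2 fold change -1.08 with SE 0.206 and an FDR of 0.00780). The pharyngeal factor gene Tbx1 was at 19.4, 19.9, 20.1 and 20.9 CPM in wild-type and 15, 12.3, 12.8 and 11.8 CPM in Kat6a-/- embryos (log2 fold change -0.65 with SE 0.0767 and an FDR of 4.29e-05). In both genes all 4 Kat6a-/- embryos were below all wild-type embryos, and the share of all genes separated this way was not computed. The others were Cdx2 of the tail bud (log2 fold change -0.42 with SE 0.106 and an FDR of 0.0433), Pax2 of the isthmus (log2 fold change -0.40 with SE 0.103 and an FDR of 0.0440) and Six3 of the forebrain (log2 fold change -0.34 with SE 0.0774 and an FDR of 0.0269). Cdx2 varied within wild-type embryos, from 5.35 to 14.1 CPM, and overlapped between the genotypes. With litter as a block Tbx1 passed (-0.61, FDR 0.0394), while Sp9, Cdx2, Pax2 and Six3 kept their direction, at -0.82, -0.73, -0.37 and -0.29, with FDRs of 0.415 or more. Fgf8, which marks the same ridge, tail bud, isthmus and pharynx, was at -0.16 in that comparison.
In Kat6a-/-Tg(Kat6b) vs. Kat6a-/- embryos 7 of the 34 were higher and none lower, beside 3.39% of all genes in this direction. These were Sp9 (1.07), Dlx5 (0.43) and Msx2 (0.41) of the limb ridge, Cdx2 (0.66) and Nkx1-2 (0.65) of the tail bud, Tbx1 (0.36) of the pharynx, and Six3 (0.40), with edgeR FDRs of 0.000829 to 0.0212. Fgf8 was at 0.32 there. In Tg(Kat6b) vs. wild-type embryos T (log2 fold change 0.59 with SE 0.114 and an FDR of 0.0423) and Cdx2 (log2 fold change 0.51 with SE 0.103 and an FDR of 0.0423), both of the tail bud, were higher, while Fgf8 was within 0.947 to 1.26 fold. T and Cdx2 were 2 of the 34 genes, beside 0.14% of all genes in either direction. Neither passed without Tg(Kat6b) replicate 1 (0.63, FDR 0.117, and 0.60, FDR 0.0626) or with litter as a block (0.80 and 0.69, each with an FDR of 0.999), and the Cdx2 values of the Tg(Kat6b) embryos, 8.78 to 13.2 CPM, lay inside the wild-type range. Of the 34 genes, none passed with edgeR when Kat6a-/-Tg(Kat6b) embryos were compared with wild type, where 5 of the 34 had an unadjusted p under 0.05, beside 12.7% of all genes. In Kat6a-/-Tg(Kat6b) vs. Tg(Kat6b) embryos Tbx1 was lower (log2 fold change -0.52 with SE 0.0807 and an FDR of 0.00197), also without Tg(Kat6b) replicate 1 (-0.46, FDR 0.0133). It was 1 of the 34, beside 1.14% of all genes that passed and were lower. The difference between the members and these genes was not tested, and the lists were compiled with results of these embryos known.

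**Figure D4:**
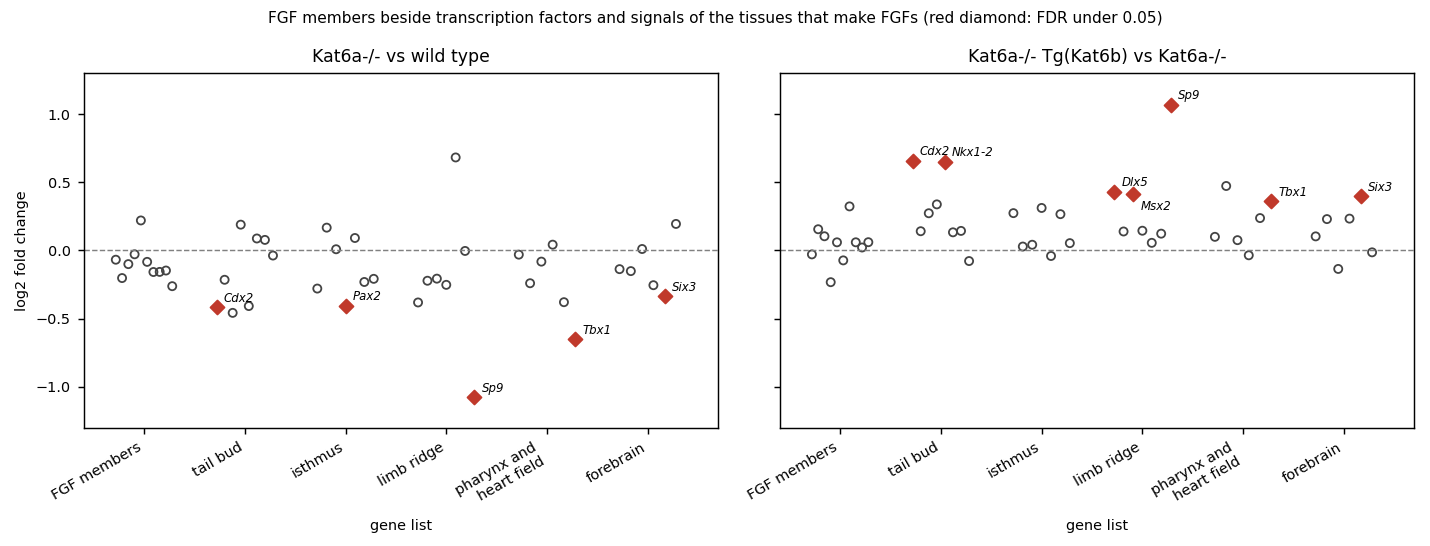
Log2 fold changes (vertical axis) of the 10 FGF genes and of 34 genes that mark the tissues where FGFs are made, in Kat6a-/- vs. wild-type embryos (left) and Kat6a-/-Tg(Kat6b) vs. Kat6a-/- embryos (right), with 1 symbol per gene and red diamonds for an edgeR FDR under 0.05. Sp9 lies at -1.08 on the left and 1.07 on the right, while the FGF genes lie between -0.26 and 0.22 on the left and between -0.23 and 0.32 on the right.

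Among themselves the 10 genes form 45 pairs, whose correlations over the 16 embryos were computed from log2(CPM + 1). On this scale the strongest was between the ligand Fgf10 and the ETS factor Etv4, a known target of FGF signalling. Pearson's r was 0.69 (permutation test, p = 0.00431, adjusted over 45 pairs 0.131) and Spearman's rho was 0.86 (permutation test, p = 6e-05, adjusted 0.00270). Without the 2 embryos farthest from the median of Fgf10, r was 0.70, and for deviations from the genotype means it was 0.74, so that the relation was present within genotypes. For deviations from the litter means, over the 15 embryos of 5 litters, it was 0.79. Fgf3 and Fgf17 gave r = 0.66 (permutation test, p = 0.00583, adjusted 0.131) and rho = 0.59 (permutation test, p = 0.0171, adjusted 0.143), with r = 0.42 without the 2 embryos farthest from the median of Fgf3 and 0.52 for deviations from the litter means. Spry2 and Spry4 gave r = 0.63 (permutation test, p = 0.00936, adjusted 0.140) and rho = 0.67 (permutation test, p = 0.00585, adjusted 0.132), with r = 0.72 without the 2 farthest embryos. For this pair the deviations from the genotype means gave 0.10, and those from the litter means 0.37, both smaller than over all embryos. Spry1 and Spry4 gave r = 0.61 (permutation test, p = 0.0129, adjusted 0.145) and rho = 0.59 (permutation test, p = 0.0168, adjusted 0.143), with r = 0.40 without the 2 farthest embryos. The order depended on the scale. After removal of the surrogate variables, Spry1 with Spry4 was the highest pair (r = 0.79), followed by Spry1 with Dusp6 (0.69), Spry2 with Spry4 (0.64), Spry1 with Spry2 (0.63), Fgf15 with Dusp6 (0.63) and Fgf10 with Etv4 (0.63), and these values were not tested. No pair passed an adjusted p of 0.05 by Pearson's r, and Fgf10 with Etv4 was the only pair that passed by Spearman's rho, both from log2(CPM + 1). The permutations treated the 16 embryos as exchangeable, although they share genotypes and litters. These p-values therefore do not allow for that structure, and the correlations of deviations were not tested.

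**Figure D5:**
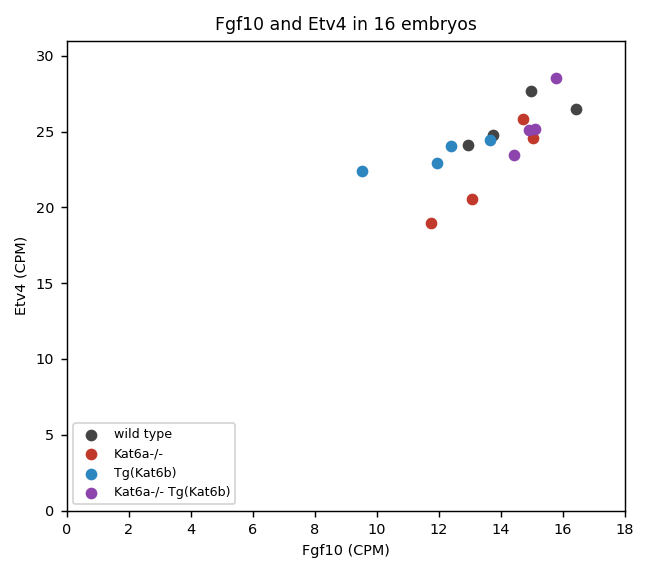
Expression of Etv4 against Fgf10 in CPM (both axes from 0) in the 16 embryos, with 1 point per embryo coloured by genotype. The embryos with less Fgf10 also have less Etv4 (Pearson's r = 0.69), over ranges of 9.52 to 16.4 CPM of Fgf10 and 19.0 to 28.5 CPM of Etv4.

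The genes with the most similar profiles were found among 14037 genes as the 3 with the highest Pearson's r over the 16 embryos, after removal of the surrogate variables. They are given as a description, since they are the best of many genes over few embryos, and the points share libraries and depth. For Spry2 these were Lmx1a (0.95), Cadps2 (0.94) and Mettl17 (0.91). For Spry1 they were Rcl1 (0.92), Eef2 (0.90) and Ttpa (0.88). Spry4 was closest to Zfp110 (0.89), Rps12 (0.88) and Snx7 (0.87), and Dusp6 to Hpdl (0.90), Pcolce (0.86) and AI429214 (0.80). Among the ligands, Fgf8 was closest to Zfp185 (0.92), Gga3 (0.92) and Ccdc171 (0.91), and Fgf15 to Usp30 (0.91), Fth1 (0.91) and Wnt7a (0.88). Fgf10 was closest to Ccdc141 (0.84), Rbms3 (0.84) and Lama4 (0.84), and Fgf17 to Fzd2 (0.86), Peg13 (0.82) and Tnip1 (0.80). Fgf3 was closest to Tbc1d22a (0.91), Fam161a (0.83) and Fam169a (0.82). For Etv4 they were Plekhf1 (0.88), Helq (0.84) and Rnf138 (0.80). None of these is a member or a listed gene of the pathway.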

How the data were processed

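Raw read counts per gene, 1 table per embryo, were deposited by the authors for 16 embryos. Per the study's methods, libraries were made with the TruSeq RNA v2 kit, which does not mark strand, and paired reads were aligned to mm39 (GRCm39) with Rsubread. The processing notes also name featureCounts. The annotation and strand setting of the counting are not given in the sources used here, and the depth was 14407277 to 45665680 counts per embryo.

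From these counts, genes were filtered with filterByExpr (minimum count 10, minimum total 15), scaled by TMM and fitted with edgeR 4.0.16 (R 4.3.3, robust quasi-likelihood) over all 16 embryos, with 2 surrogate variables from sva 3.50.0 as covariates. The study's methods name edgeR, limma, TMM and surrogate variables, and the filter, the quasi-likelihood fit and the number of surrogate variables were chosen here. This gave 15679 of 26411 genes in 5 comparisons and the interaction, with Benjamini-Hochberg adjustment over all of them. CPM used the same scaling, and RPKM used the lengths in the files. Neither was adjusted for the surrogate variables, so the sign of an estimate can differ from that of the CPM means. A fit without surrogate variables was run on simulated data, for Kat6a-/- vs. wild type only. The planted changes were larger than any difference of the 10 genes. The fit with surrogate variables, and differences as small as those reported, were not tested in this way. DESeq2 1.42.0 and limma-voom (limma 3.58.1) were alternatives, with other filters, scalings, covariates, blocks and left-out embryos. Tests of listed genes without Tg(Kat6b) replicate 1 or with litter as a block, and correlations within litters, were added after seeing the data. The replicates of a genotype are separate embryos.

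All 10 genes are named in the text. Other genes are named if they were on a fixed list and passed an FDR of 0.05, if they are receptors, feedback genes or ETS factors of the pathway, or if they were the 3 most similar in profile. The members and lists were chosen with earlier results of these data known, and Benjamini-Hochberg values over the lists alone are therefore not given. Of the genes first listed, 2 are not reported here. Positions are from GENCODE, and promoters from RefSeq, where 5 of 10 genes matched.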

Additional observations from a re-analysis of the deposited data

Results flagged for a closer look

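Of the 40 groups of 4 embryos formed by 10 genes and 4 genotypes, 2 held an embryo far from the others by Dixon's ratio, the gap to the nearest embryo over the range of the group, and chance alone flags about 1 in 20 groups. For Fgf8 in Tg(Kat6b) embryos the ratio was 0.959, since replicate 4 was at 11.5 CPM and the other 3 were at 14.3 to 14.4 CPM. This embryo was the only Tg(Kat6b) embryo from litter 2598. For Fgf15 in wild-type embryos the ratio was 0.891, since replicate 2 was at 24.6 CPM and the other 3 were at 17.8 to 18.5 CPM. Without that embryo the log2 fold change of Fgf15 between Kat6a-/-Tg(Kat6b) and wild-type embryos was -0.075 instead of -0.26.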

How the results depend on the processing

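The number of the 10 genes past an FDR of 0.05 was 0 under every alternative and with any 1 embryo left out in Kat6a-/- vs. wild type, Tg(Kat6b) vs. wild type, Kat6a-/-Tg(Kat6b) vs. wild type and the interaction. In Kat6a-/-Tg(Kat6b) vs. Kat6a-/- embryos it was 0, but 1 (Fgf8) under DESeq2 (FDR 0.0376), limma-voom (0.0470), no filter (0.0415) and a fit of the compared genotypes alone (0.0113), and 0 to 1 with an embryo left out (1 without wild-type replicate 1 or 2 or Tg(Kat6b) replicate 1 or 4). In Kat6a-/-Tg(Kat6b) vs. Tg(Kat6b) embryos it was 1 (Spry2), but 0 without surrogate variables (FDR 0.0757), with 1 surrogate variable (0.0565), with DESeq2 size factors in edgeR (0.0515), with at least 10 counts in every embryo (0.114), with sex as a covariate (0.0545) and in a fit of the compared genotypes alone (0.0659). It was 0 to 1 with an embryo left out, where Spry2 passed only without wild-type replicate 1, 2 or 4 or Tg(Kat6b) replicate 2, and its log2 fold change ranged from -0.26 to -0.20. In Kat6a-/- vs. wild type the estimate of Fgf8 changed sign to 0.00146 with at least 10 counts in every embryo, and with an embryo left out Fgf3 ranged from -0.19 to 0.0430 and Fgf15 from -0.0705 to 0.10. The other member estimates given in the text kept their sign. The filter of 10 counts left the counts of Fgf8 (196 to 666 per embryo) as they were. It changed the other genes of the fit, from which the surrogate variables were estimated again. The cause was not tested.

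Counts over all genes moved as follows. Kat6a-/- vs. wild type gave 295 genes, 95 without and 96 with 1 surrogate variable, 117 with at least 10 counts in every embryo, 91 with sex, 85 from these genotypes alone and 18 with litter as a block. Tg(Kat6b) vs. wild type gave 22, 5 without surrogate variables, 5 with 1, 5 with sex, 219 under DESeq2, 315 with no filter, 2 from these genotypes alone and 1 with litter as a block. Kat6a-/-Tg(Kat6b) vs. wild type gave 105, 244 under DESeq2 and 158 with no filter. Kat6a-/-Tg(Kat6b) vs. Kat6a-/- gave 1119, 614 without and 606 with 1 surrogate variable, 98 with at least 10 counts and 589 with sex. Kat6a-/-Tg(Kat6b) vs. Tg(Kat6b) gave 535, 882 under DESeq2, 1011 with no filter and 265 from these genotypes alone. The interaction gave 24, 138 under DESeq2, 84 with no filter and 66 with at least 10 counts. With 1 embryo left out the counts in this order were 137 to 432 (lowest without wild-type replicate 2, highest without Tg(Kat6b) replicate 1), 1 to 108 (without wild-type replicate 1 and wild-type replicate 4), 39 to 210 (without Kat6a-/-Tg(Kat6b) replicate 2 and Tg(Kat6b) replicate 1), 492 to 1671 (without Kat6a-/- replicate 1 and Tg(Kat6b) replicate 1), 165 to 876 (without Tg(Kat6b) replicate 1 and wild-type replicate 4) and 16 to 81 (without Kat6a-/- replicate 1 and Tg(Kat6b) replicate 2).

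No label says that a replicate number marks a shared litter or day, and 3 of the 24 same-number pairs were littermates. Their deviations from the genotype means correlated at -0.26 to 0.22 over the 24 pairs, 10 of them over 0.1. With the replicate block the counts of genes were 127, 5, 96, 869, 515 and 17 in the same order, Fgf8 was called in Kat6a-/-Tg(Kat6b) vs. Kat6a-/- (1 member, FDR 0.0495), and in Kat6a-/-Tg(Kat6b) vs. Tg(Kat6b) Fgf10 was called (1 member, FDR 0.0470) and Spry2 was not (FDR 0.0684). Litter as a block was not possible in comparisons with Kat6a-/-Tg(Kat6b) embryos, and the interaction has no fit of fewer genotypes. Depth limits Fgf3 most, with 25 to 155 counts per embryo and intervals of 0.751 to 1.19 fold in Kat6a-/- vs. wild type.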
